A study of Homo sapiens with 4 samples.

Results

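The alternative splicing events of 6 genes that organize microtubules, NUMA1, CLASP1, CLASP2, MACF1, MAP4 and CLIP1, were followed in U87MG cells, a glioblastoma-derived cell line, after transfection of the decoy RNA oligonucleotide RBFOXi or of SCRM, the control oligonucleotide. All events whose gene symbol matched 1 of these names exactly were taken, which gave 208 of the 121269 events in the 5 tables of event types. They comprised 145 skipped exons (SE), 53 pairs of mutually exclusive exons (MXE), 6 alternative 3′ splice sites (A3SS), 3 alternative 5′ splice sites (A5SS) and 1 retained intron (RI). MAP4 held 83 of them, MACF1 35, CLIP1 28, NUMA1 26, CLASP1 19 and CLASP2 17. Both groups were the same line and received 2.5 µM of oligonucleotide with a lipid reagent, and each group had 2 libraries described as independent biological replicates. According to the sample labels, the oligonucleotide of RBFOXi replicate 1 carried the dye Cy5, and no dye is named for the other libraries, so that dye and replicate cannot be told apart within RBFOXi. The study made RBFOXi to occupy the RNA binding domain of RBFOX1 and RBFOX2, and the comparison with SCRM asks which exons change when these splicing factors are engaged by the decoy.

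RBFOX proteins bind UGCAUG in pre-mRNA. As general background, binding in the intron downstream of an exon tends to favour its inclusion, and binding upstream tends to favour its skipping. The 6 genes code for large scaffolds on the microtubule network. NUMA1 gathers microtubules at the spindle poles and links them with dynein to the cell cortex. CLASP1 and CLASP2 are paralogs that stabilize microtubule plus ends, CLIP1 (CLIP-170) tracks growing plus ends, MACF1 crosslinks microtubules with actin, and MAP4 is the main structural microtubule-associated protein of cells outside the nervous system. Several of these genes carry short cassette exons that preserve the reading frame, which add or remove a few residues in a long protein.

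Inclusion was measured as PSI, the proportion spliced in, from 0 for an exon that is always skipped to 1 for an exon that is always included. PSI was computed from the deposited counts of reads that fit the inclusion or the skipping form, each divided by the effective length of that form. Delta PSI is the mean of RBFOXi less the mean of SCRM, and is negative where inclusion was lower with RBFOXi. Intervals given for a PSI are 95% Wilson intervals of the share of inclusion counts, carried over to the PSI scale. They cover counting error only, not the spread between libraries. Reads without molecular identifiers are not independent molecules, so the intervals may be too narrow even for that.

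The markers of a mesenchymal glioma line were deeply covered, with 128266 to 185009 counts in the deepest event of VIM, while GFAP, AQP4, RBFOX1, RBFOX3, MOG and PTPRC had no skipped exon event in the tables used here. Other markers were present, with 214 to 1569 counts in the deepest event of the astrocyte gene SLC1A3, 364 to 808 in the neuronal SNAP25, 8 to 91 in SYT1, 0 to 25 in the oligodendrocyte gene MBP and 45649 to 65957 in CD68, a lysosomal protein used as a macrophage marker. The deepest RBFOX2 event had 1335, 1602, 351 and 2392 counts in RBFOXi replicates 1 and 2 and SCRM replicates 1 and 2, so that RNA of the targeted factor was present in all of them. A decoy acts on the protein and the counts do not measure its activity. RNA came from bulk cultures, in which fewer cells of a kind and less RNA per cell cannot be told apart.

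SCRM replicate 1 stood apart from the other libraries. Over all skipped exon events it held 114415530 counts, against 124782728 to 136097319 in the other libraries, but in the 6 genes it held 127846 counts against 333897 to 429875. Its counts relative to SCRM replicate 2 were 0.0748 in CLASP1, 0.18 in CLASP2, 0.232 in CLIP1, 0.244 in MACF1, 0.3 in MAP4 and 0.476 in NUMA1. The shortfall followed the position of the exon in the transcript. In exons 1000 to 2000 nt from the 3′ end of the transcript, the median ratio of inclusion counts of SCRM replicate 1 to SCRM replicate 2 was 0.802 in the 6 genes (7 exons), and over 8000 nt from the 3′ end it was 0.0246 (14 exons). Over all genes the same ratio went from 1.49 within 1000 nt of the 3′ end to 0.142 beyond 8000 nt, whereas the ratio of the RBFOXi replicates stayed between 0.783 and 0.911. The part of this gradient in the results was not tested. Values without SCRM replicate 1 are given for the exons chosen by mean PSI or by the smallest p of their gene, where they could still be tested.

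**Figure D1:**
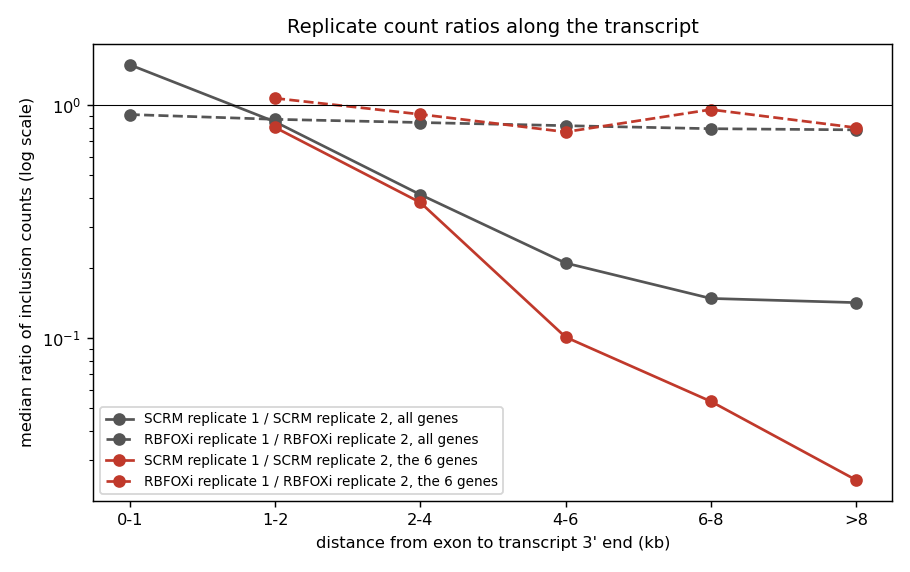
Median ratio of inclusion counts between replicates (vertical axis, log scale) against the distance of the exon from the 3′ end of its transcript in kb (horizontal axis), for SCRM (solid lines) and RBFOXi (dashed lines), in all genes (grey) and in the 6 genes (red). The SCRM ratio of the 6 genes ends at 0.0246 beyond 8 kb, while the RBFOXi ratio of the 6 genes lies between 0.767 and 1.07 throughout.

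No skipped exon event of the 6 genes was called changed. Of their 145 events, 58 had enough counts of both forms to be tested, at 35 of 93 distinct exons. Of the other 87 events, 79 lacked counts of 1 of the forms, 3 lacked depth and 5 lacked both. An event was called at a Benjamini-Hochberg adjusted p under 0.05 from limma over all 39615 tested skipped exon events, provided that delta PSI reached 0.1 in either direction. By this rule 0.0682% of all tested events were called, and 0 of 58 in the 6 genes. An unadjusted p under 0.05 was found for 3 events with lower inclusion after RBFOXi, where the share over all tested events was 1.74%, and for 1 with higher inclusion, where that share was 1.87%. These are the NUMA1 42 nt exon, the MACF1 18 nt and 111 nt exons, and the CLIP1 105 nt exon. A quasi-binomial F test called 1 event of the 6 genes and 0.131% of all tested events, and Fisher's exact test on the pooled counts of each group, which takes no account of how far replicates lie apart, called 2 and 0.8%.

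Most of the tested exons were close to constitutive in both groups. The mean PSI over the 4 libraries was above 0.9 at 19 exons, under 0.1 at 6 and between these values at 10. Over all 30617 tested exons these classes held 22987, 2192 and 5438, so exons above 0.9 were a smaller share in the 6 genes. The median delta PSI of the 58 tested events was 0.000294, beside -5.65e-05 over all tested events. In 8 events both RBFOXi libraries lay below both SCRM libraries, and in 8 both lay above. Over all tested events such separation was found in 16.5% and 14.3%. The 8 above include the CLIP1 33 nt and CLASP1 27 nt exons, which met the minimum of 4 inclusion counts only through RBFOXi. At 2 of the 35 exons (5.71%) the absolute delta PSI reached 0.1, beside 4.43% of all 30617 tested exons, and both belong to the 10 exons of intermediate inclusion. The median gap between replicates over the 35 exons was 0.0071 in RBFOXi and 0.0111 in SCRM.

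**Figure D2:**
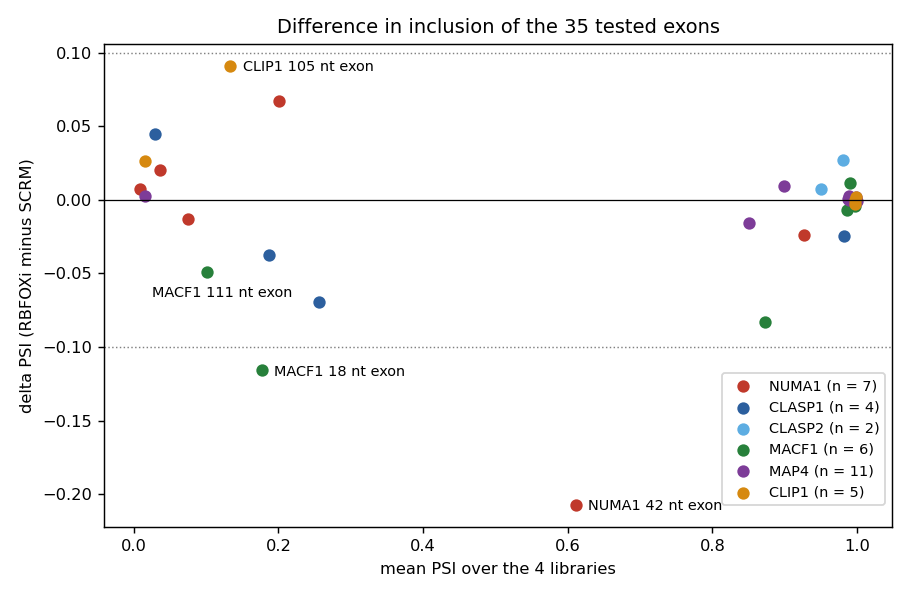
Delta PSI (RBFOXi minus SCRM, vertical axis) against the mean PSI of the 4 libraries (horizontal axis) for the 35 tested exons, coloured by gene, with dotted lines at a delta PSI of 0.1 and -0.1. The NUMA1 42 nt exon at -0.207 and the MACF1 18 nt exon at -0.116 lie beyond the lines, and the exons with a mean PSI over 0.9 lie close to 0.

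The NUMA1 42 nt exon had the lowest delta PSI of the 35 exons. NUMA1 is also a gene that the study assayed by RT-PCR as a target of RBFOX. The study reported a change in its splicing with RBFOXi and none with its decoys against PTBP1 and SRSF1. The place of NUMA1 in this list is therefore not independent of its response. The exon is coding, lies at chr11:71723447-71723488 (hg19, minus strand) near the 3′ end of the gene, and is carried with these ends by 1 GENCODE transcript. The exon in capitals, with 10 nt of intron on each side, and the part of the downstream intron that holds the only TGCATG within 300 nt of the exon, in capitals, are shown because this exon had the smallest p of the 35.
NUMA1 42 nt exon, chr11:71723437-71723498: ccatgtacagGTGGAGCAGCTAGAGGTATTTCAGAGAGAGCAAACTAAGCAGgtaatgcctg
NUMA1 downstream intron, nucleotides 36 to 81, chr11:71723366-71723411: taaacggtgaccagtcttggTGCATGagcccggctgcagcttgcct

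The motif begins at nucleotide 56 of the downstream intron, which is 1546 nt long. With RBFOXi, the PSI of the exon was 0.534 in replicate 1, from 404 inclusion and 475 skipping counts, and 0.481 in replicate 2, from 371 and 540. With SCRM, it was 0.684 in replicate 1, from 334 and 208 counts, and 0.745 in replicate 2, from 604 and 278. The groups did not overlap, and neither did the counting intervals, which reached at most 0.567 in RBFOXi and at least 0.645 in SCRM. Mean PSI was 0.507 ± 0.0377 with RBFOXi and 0.715 ± 0.0435 with SCRM (SD, n = 2 each), and the differences between single libraries ran from -0.15 to -0.265. The change was -1.29 ± 0.299 (SE) on the log2 odds scale. Its unadjusted p from limma was 0.000793 and its adjusted p was 0.425, so that the exon was not called.

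The quasi-binomial F test gave the NUMA1 exon an adjusted p of 0.0165, and over all alternatives the adjusted p ran from 1.34e-34, with Fisher's exact test on summed counts, to 1.0, without RBFOXi replicate 2. Without SCRM replicate 1 the delta PSI was -0.238, with an unadjusted p of 0.0018 and an adjusted p of 0.846 from limma. The exact two-sided permutation test over the libraries gave p = 0.333, the smallest value that its 6 arrangements allow.

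NUMA1 held 6 further tested exons. The 121 nt exon at chr11:71760465-71760585 is not coding and lies near the 5′ end of the gene. It has 2 tested events, and the groups overlapped in the less covered of them. In the deeper event its PSI was 0.252 and 0.216 with RBFOXi and 0.163 and 0.172 with SCRM, and the groups did not overlap. SCRM replicate 1 contributed 25 counts to the deeper event, against 207 to 222 in the other libraries. The delta PSI of 0.0669 had an unadjusted p of 0.176 from limma, and without SCRM replicate 1 it was 0.0624, with an unadjusted p of 0.253. The coding 54 nt exon was rarely included, at 0.051 and 0.0418 with RBFOXi and 0.025 and 0.0269 with SCRM. The coding exon of 3366 nt, the longest tested exon of the 6 genes, was included at 0.996 to 1.0. Of the 3 coding exons tested in NUMA1, only the 42 nt exon was of intermediate inclusion.

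MACF1 held 3 tested exons of intermediate inclusion, all coding, of which the pair nearer the 3′ end of the gene had lower PSI values in both RBFOXi libraries than in both SCRM libraries, and neither was called. The 18 nt exon at chr1:39930767-39930784 (plus strand) and the 111 nt exon at chr1:39946592-39946702 are shown because both had an unadjusted p under 0.05, with exons in capitals and 10 nt of intron on each side.
MACF1 18 nt exon, chr1:39930757-39930794: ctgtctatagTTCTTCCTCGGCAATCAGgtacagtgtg
MACF1 111 nt exon, chr1:39946582-39946712: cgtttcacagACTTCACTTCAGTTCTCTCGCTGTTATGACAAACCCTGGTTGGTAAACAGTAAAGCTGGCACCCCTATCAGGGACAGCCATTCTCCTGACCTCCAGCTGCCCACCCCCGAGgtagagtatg

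The PSI of the 18 nt exon was 0.141 and 0.097 with RBFOXi and 0.254 and 0.216 with SCRM. Both RBFOXi libraries were lower than both SCRM libraries. These values rest on 26 and 19 inclusion counts with RBFOXi and 35 and 45 with SCRM, beside 637 to 1094 skipping counts, and the counting interval of RBFOXi replicate 1 (0.1 to 0.195) met that of SCRM replicate 1 (0.195 to 0.323) and overlapped that of SCRM replicate 2 (0.17 to 0.271). The delta PSI was -0.116, with a log2 odds change of -1.19 ± 0.467 (SE) and an unadjusted p of 0.0239 from limma, and the exon was not called. Without SCRM replicate 1 the delta PSI was -0.0971, with an unadjusted p of 0.0939. The effective length at so short an exon is 11 for inclusion and 68 for skipping, so that the correction for length is large. As a plain share of counts the delta was -0.0259.

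The PSI of the MACF1 111 nt exon was 0.0841 and 0.0685 with RBFOXi and 0.147 and 0.104 with SCRM. The groups did not overlap, but the SCRM replicates differed by nearly as much as the groups. Here the 4 libraries were of similar depth, at 1950 to 2104 counts. The delta PSI was -0.0491, or -0.0836 as a plain share, with an unadjusted p of 0.0163 from limma. Without SCRM replicate 1 it was -0.0275, with an unadjusted p of 0.173. Neither exon had TGCATG within 300 nt in the introns beside it.

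The MACF1 63 nt exon at chr1:39844133-39844195 lies closer to the 5′ end of the gene, and its PSI was 0.797 and 0.866 with RBFOXi and 0.829 in SCRM replicate 2. SCRM replicate 1 gave 1.0 from 5 counts, with an interval from 0.5 to 1.0, against 534 counts in SCRM replicate 2. The delta PSI of -0.0828 rested on that library, and without it the value was 0.00268. From the 63 nt to the 18 nt and the 111 nt exon, in the order of transcription, the counts of SCRM replicate 1 were 5, 672 and 1986 while those of SCRM replicate 2 were 534, 1054 and 1973. The other MACF1 exons tested, of 200, 162 and 108 nt, had a PSI of 0.97 or more in every library.

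In CLIP1, the 105 nt exon had the highest delta PSI of the 35 tested exons. It is coding and lies at chr12:122831922-122832026 (minus strand). The exon in capitals with 10 nt of intron on each side, and the stretches of both introns that hold TGCATG nearest to it, in capitals, are shown because it is the only 1 of the 35 tested exons with the motif within 300 nt on both sides.
CLIP1 upstream intron, 106 to 61 nt before the exon, chr12:122832087-122832132: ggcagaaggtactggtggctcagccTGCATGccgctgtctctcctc
CLIP1 105 nt exon, chr12:122831912-122832036: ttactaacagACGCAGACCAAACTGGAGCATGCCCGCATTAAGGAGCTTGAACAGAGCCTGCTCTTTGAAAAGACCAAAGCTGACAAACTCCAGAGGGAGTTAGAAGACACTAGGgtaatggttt
CLIP1 downstream intron, nucleotides 15 to 60, chr12:122831862-122831907: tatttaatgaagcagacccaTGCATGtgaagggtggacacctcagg

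Upstream, the motif begins 81 nt and again 279 nt before the CLIP1 exon, and downstream it begins at nucleotide 35 of the intron. The PSI was 0.151 and 0.207 with RBFOXi and 0.118 and 0.0581 with SCRM, so both RBFOXi libraries were above both SCRM libraries. SCRM replicate 1 had 34 counts at this exon, and its interval of 0.0599 to 0.22 covered both RBFOXi values. The delta PSI was 0.091, with a log2 odds change of 1.22 ± 0.442 (SE), an unadjusted p of 0.0159 and an adjusted p of 1.0 from limma. It was 0.121 without SCRM replicate 1 (unadjusted p of 0.00239 and adjusted p of 0.938), 0.0609 at the lowest with another library left out, and 0.165 as a plain share. Over all alternatives its adjusted p ran from 1.28e-17, with Fisher's exact test on summed counts, to 1.0. The exon has 2 tested events, and these values are those of the deeper. In the other event the groups overlapped, and its unadjusted p from limma was not under 0.05.

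CLIP1 also has a coding 33 nt exon farther upstream, at chr12:122835658-122835690, which was included at 0.0496 and 0.00731 with RBFOXi and at 0 and 0.00482 with SCRM. These values rest on 5 and 1 inclusion counts with RBFOXi and 0 and 1 with SCRM. The RBFOXi replicates differed more from each other here than the lower of them did from SCRM. The remaining 3 tested exons of CLIP1, of 125, 50 and 117 nt, were included at 0.993 or more in every library.

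CLASP1 and CLASP2 can be compared exon by exon, since 5 skipped exons of CLASP1 have a partner of the same length in CLASP2. At 4 of these pairs, of 24, 108, 117 and 207 nt, the sequences were identical at 67.5% to 75% of positions without gaps, and at the fifth, of 79 nt, at 45.6%. The 24 nt and 108 nt pairs are shown, with exons in capitals and 10 nt of intron on each side, because their inclusion differed between the paralogs.
CLASP1 24 nt exon, chr2:122166590-122166633, minus strand: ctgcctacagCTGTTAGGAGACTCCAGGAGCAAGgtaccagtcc
CLASP2 24 nt exon, chr3:33615955-33615998, minus strand: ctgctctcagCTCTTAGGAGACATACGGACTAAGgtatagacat
CLASP1 108 nt exon, chr2:122176188-122176315, minus strand: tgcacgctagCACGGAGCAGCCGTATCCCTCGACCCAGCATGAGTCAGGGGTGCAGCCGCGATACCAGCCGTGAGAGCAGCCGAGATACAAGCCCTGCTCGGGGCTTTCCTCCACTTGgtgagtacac
CLASP2 108 nt exon, chr3:33623303-33623430, minus strand: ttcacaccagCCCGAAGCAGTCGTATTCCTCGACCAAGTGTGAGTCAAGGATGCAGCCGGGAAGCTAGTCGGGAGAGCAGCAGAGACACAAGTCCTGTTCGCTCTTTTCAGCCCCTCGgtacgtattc

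The 108 nt exon, identical at 81 positions, was skipped in CLASP1 and included in CLASP2. In CLASP1 its PSI was 0.00375, 0, 0 and 0 in RBFOXi replicates 1 and 2 and SCRM replicates 1 and 2, from 128, 162, 28 and 242 counts. In CLASP2 it was 1.0, 0.992, 1.0 and 0.997, from 312, 544, 82 and 695 counts. The opposite use of the pair was found in all 4 libraries, and neither exon had enough counts of its rarer form to be tested for a difference between the groups.

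The 24 nt exon, identical at 17 positions, was included at intermediate levels in CLASP1 and hardly at all in CLASP2. In CLASP1 its PSI was 0.168 and 0.169 with RBFOXi and 0.28 and 0.131 with SCRM. RBFOXi lay between the SCRM replicates, and SCRM replicate 1 had 15 counts, with an interval of 0.0894 to 0.607. The delta PSI of -0.0373 had an unadjusted p of 0.629 from limma and turned to 0.0373 without SCRM replicate 1. In CLASP2 the PSI was 0, 0, 0 and 0.00833, from 146, 209, 28 and 302 counts. The pairs of 79, 117 and 207 nt were included at 0.937 or more in both genes and in every library. Among them, the CLASP2 207 nt exon had the smallest p of that gene, with a PSI of 0.993 and 0.994 with RBFOXi, 0.948 and 0.985 with SCRM, a delta PSI of 0.0271 and an unadjusted p of 0.14 from limma. Without SCRM replicate 1 its delta PSI was 0.00871.

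**Figure D3:**
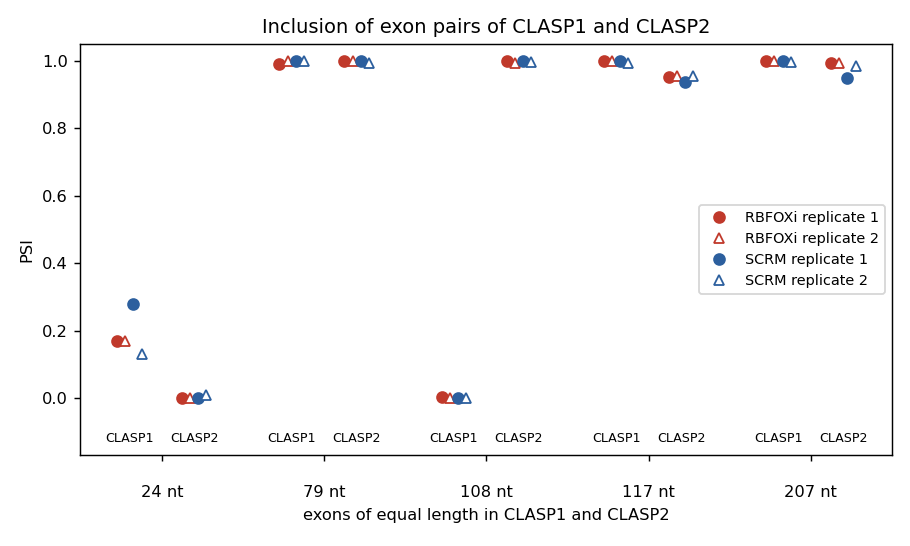
PSI in each library (vertical axis) of the 5 pairs of skipped exons with equal length in CLASP1 and CLASP2, ordered by length, with RBFOXi in red and SCRM in blue, and replicate 1 as filled circles and replicate 2 as open triangles. The 108 nt exon sits near 0 in CLASP1 and near 1 in CLASP2 in all 4 libraries, and the 24 nt exon reaches 0.28 in CLASP1 and 0.00833 in CLASP2.

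CLASP1 has a further coding exon of intermediate inclusion, of 48 nt at chr2:122203025-122203072. Its PSI was 0.168 and 0.275 with RBFOXi and 0.386 and 0.195 with SCRM, so that the replicates of each group differed by more than the group means. SCRM replicate 1 had 16 counts there, and the delta PSI went from -0.0691 to 0.0266 without it. The CLASP1 27 nt exon, with TGCATG beginning 79 nt upstream, was included at 0.0383 and 0.0669 with RBFOXi and at 0 and 0.0158 with SCRM, with 12 counts in SCRM replicate 1 and an unadjusted p of 0.621 from limma. Its inclusion counts were 1 and 3 with RBFOXi and 0 and 1 with SCRM. In SCRM replicate 1 the intervals of the 24 nt and 48 nt exons, the latter from 0.192 to 0.625, were wider than the difference measured at the NUMA1 exon.

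MAP4 had the most counts of the 6 genes. It held 31 of the 58 tested events, at 11 exons, of which 8 had a mean PSI over 0.9. The 123 nt exon at chr3:47960209-47960331 (minus strand) was included at 0.839 and 0.846 with RBFOXi and 0.894 and 0.822 with SCRM, from 728 counts in SCRM replicate 1 and 3275 to 4683 in the others. The RBFOXi libraries lay between the SCRM libraries, and the delta PSI of -0.0156 became 0.0208 without SCRM replicate 1. The 69 nt exon at chr3:48019355-48019423 was included at 0.912 and 0.895 with RBFOXi and 0.878 and 0.911 with SCRM, and its delta PSI of 0.00919 became -0.0072 without SCRM replicate 1.

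Of the exons of MAP4 near the limits of PSI, the 1224 nt exon had the smallest unadjusted p of the gene, 0.284 from limma, at a PSI of 0.996 to 1.0 and a delta PSI of 0.0018, and without SCRM replicate 1 it had too few skipping counts to be tested. The 51 nt exon was skipped almost throughout, at 0.017 and 0.0161 with RBFOXi and 0.0144 and 0.0142 with SCRM, from 337 to 2664 counts. No MAP4 exon had an absolute delta PSI of 0.1.

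**Figure D4:**
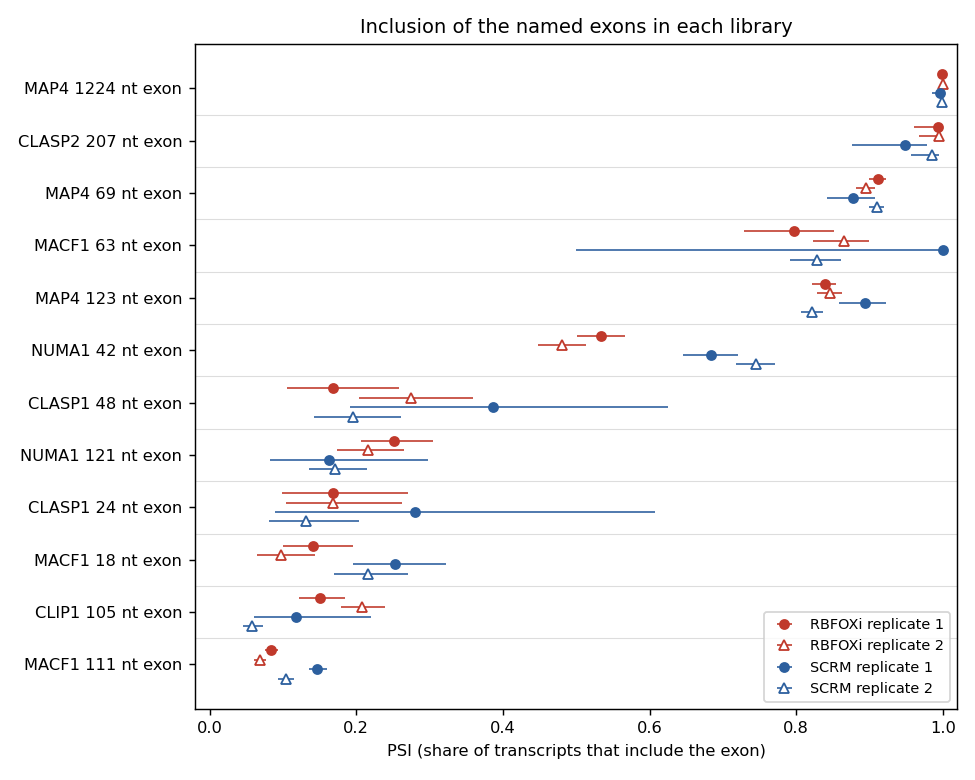
PSI of the 12 exons chosen by mean PSI or by the smallest p of their gene (horizontal axis, from 0 to 1), ordered by mean PSI, with RBFOXi in red and SCRM in blue, replicate 1 as filled circles and replicate 2 as open triangles, and bars for the 95% Wilson counting interval. The 4 points of the NUMA1 42 nt exon separate by group with intervals that do not meet, while the intervals of SCRM replicate 1 are the widest at the MACF1 63 nt exon and at the CLASP1 exons.

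The other event types gave no called event in the 6 genes. For MXE, 52 of 53 events were tested. With limma 0 of them were called and 0 had an unadjusted p under 0.05, and 0% of all tested MXE events were called. The quasi-binomial F test also called 0 of the 52, and 0.00764% of all tested MXE events. Fisher's exact test called 0 of the 52 and 0.76% of all, with an unadjusted p under 0.05 for 9 of the 52. In 4 events both RBFOXi libraries lay above both SCRM libraries and in 1 below, where the shares over all tested MXE events were 16% and 8.42%. In an MXE event PSI is the share of the exon nearer the 5′ end of the transcript, and its median over the 52 events was 0.453 and 0.451 with RBFOXi, 0.402 in SCRM replicate 1 and 0.457 in SCRM replicate 2. SCRM replicate 1 was the lowest library in 35 of the 52 events, of which 18 lie in MAP4. The 52 events cover 37 distinct pairs of exons, so they are not separate observations. How often this library was the lowest over all tested MXE events was not counted.

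Without SCRM replicate 2, so that SCRM replicate 1 stood alone for its group and was assumed to vary like the others, 7 of the 52 MXE events were called, all higher with RBFOXi, of which 4 lie in MAP4 and 1 each in CLIP1, MACF1 and NUMA1. The share called over all MXE events was then 5.52%, and without SCRM replicate 1 it was 0 in the 6 genes. For A3SS, A5SS and RI, 7 of 10 events were tested, the smallest unadjusted p from limma was 0.141, and 0 were called by limma, the quasi-binomial F test or Fisher's exact test. With limma the shares called over all tested events were 0% for A3SS, 0% for A5SS and 0% for RI. Over all tested events, Fisher's exact test called 20 of 3009, 28 of 2281 and 30 of 1034 in these types, and the quasi-binomial F test called 1 A5SS event.

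Of the 35 tested exons, 25 (71.4%) had a length that keeps the reading frame, beside 42.6% over all tested exons. Of the 10 exons of intermediate inclusion, 9 had a length that is a multiple of 3 (90%), the exception being the NUMA1 121 nt exon outside the coding sequence. Among the 25 others it was 12 of 19 with a PSI above 0.9 and 4 of 6 with a PSI under 0.1. Over all tested exons of intermediate inclusion the share was 47.6%. The intermediate exons of the 6 genes had a median length of 66 nt, against 119 nt over all tested exons of that class. These figures describe exons of 6 genes and were not tested.

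TGCATG, searched on the strand of the gene only, was found within 300 nt downstream, in the intron, at 5 of the 35 exons (14.3%), beside 2559 of 30617 tested exons (8.36%), and within 300 nt upstream at 4 (11.4%), beside 8.16%. The 5 downstream matches lay beside the NUMA1 42 nt exon and the CLIP1 exons of 33, 105, 117 and 125 nt. Of these, NUMA1 was lower with RBFOXi at -0.207, the CLIP1 105 nt exon was higher at 0.091, and the other CLIP1 exons had a PSI under 0.05 or over 0.99 with differences of at most 0.026. A match describes these letters and is no evidence of binding.

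Among 65 other genes of the microtubule network, 297 skipped exon events in 55 genes were tested, and limma called 2, beside 0.0682% of all tested events. Both were lower with RBFOXi and lay at a 27 nt exon of MARK3, a kinase that phosphorylates microtubule-associated proteins. In the event with the smaller p its PSI was 0.538 and 0.328 with RBFOXi and 0.86 and 0.874 with SCRM, a log2 odds change of -3.1 ± 0.45 (SE) with an adjusted p of 0.0187. Both RBFOXi libraries lay far below SCRM and differed from each other by more than the SCRM libraries did. Without SCRM replicate 1 its delta PSI was -0.441 with an adjusted p of 0.382, and neither event was called without SCRM replicate 1 or without SCRM replicate 2. Another tested event of the MARK3 exon, with a delta PSI of -0.286, had an adjusted p of 0.83 from limma and was not called. An unadjusted p under 0.05 was found for 14 events with lower and 9 with higher inclusion, where the shares over all tested events were 1.74% and 1.87%. The smallest p of the higher events was at a 104 nt exon of SPECC1L, with a PSI of 1.0 and 1.0 with RBFOXi and 0.71 and 0.949 with SCRM (unadjusted p of 0.00964 from limma). The value of SCRM replicate 1 there rests on 6 counts, against 82 to 118 in the other libraries, and the delta PSI went from 0.171 to 0.0507 without it. The median delta PSI of this list was -0.000717.

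The tested exons outside the 6 genes with the PSI values most like those of the NUMA1 42 nt exon over the 4 libraries, by Euclidean distance, were in ATG16L1 (distance 0.0793), PPIP5K1 (0.0797), PAM (0.101), ARID1B (0.105) and ZRANB2 (0.11). Their delta PSI, whose direction follows from this choice, ran from -0.144 to -0.214 and none was called. The exon of ATG16L1, a component of the autophagy machinery, came closest, at 0.574 and 0.513 with RBFOXi and 0.721 and 0.793 with SCRM. Of the 5 exons, only that of ZRANB2 had TGCATG in the first 300 nt downstream.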

How the data were processed

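RNA-seq of 2 RBFOXi and 2 SCRM libraries was analysed from 5 tables of splicing events. According to the study's methods and the labels, the authors aligned the reads to hg19 with STAR 2.4.2a and ran rMATS. From rMATS the study reported alternative exons with changed splicing between RBFOXi and SCRM, by a test other than those used here. The deposited count columns hold, for each event and group, the inclusion and skipping counts of both libraries in 1 cell, without normalization, beside an effective length for either form. The deposited p-values, FDR and inclusion levels hold the authors' own comparison and were not used. Columns of other samples came to 0.

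For the tests, 0.5 was added to each count, and limma 3.58.1 (R 4.3.3) was run on the log2 odds of inclusion over all tested events of a type. The variance trend followed each event's information, and condition was the only term. Events needed 5 counts in every library, a mean of 20 and 4 counts of each form. Python 3.11.15, pandas 2.3.3, numpy 2.4.6, pysam 0.24.0 and matplotlib 3.10.9 served for the rest. The fit was tested on simulated data, where limma missed most of the events that had been changed. An event that was not called is therefore not shown to be unchanged. Sequences were read from GRCh37, the same assembly as hg19, and annotation from GENCODE 44 lifted to it. None of the 12 exons chosen by mean PSI or by the smallest p of their gene overlapped an exon of another gene in that annotation. Counts summed over skipped exon events were 114415530 to 136097319 per library, and a read can count in several events.

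For each exon, the event with the highest mean count stood for it. Values per library were given for exons with a mean PSI of 0.1 to 0.9 (at most 6 per gene) and for the exon with the smallest p in each gene, and other exons were named after their values were seen. The genes and lists were chosen with earlier results of these data known. Alternatives covered the test, pseudocount, filter, block, centring, thresholds, PSI definition, the number of events per exon, the libraries (each left out in turn) and the motif window.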

Additional observations from a re-analysis of the deposited data

How the results depend on the processing

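The 0 called skipped exon events of the 6 genes became 1 with the quasi-binomial F test, 2 with Fisher's exact test on summed counts (MACF1 and NUMA1) and 1 with the replicate number as a block, where the calls over all 39615 tested events went from 27 to 52, 317 and 119, and it was 0 whichever library was omitted. The delta PSI of the NUMA1 42 nt exon, -0.207, was called with these 3 alternatives, at adjusted p of 0.0165, 1.34e-34 and 0.000807, and ran from -0.238 to -0.176 with a library left out. Deviations from the group means correlated at 0.0944 between libraries of the same number over 39615 events, and libraries of the same number have titles with a common ending, whose meaning no source gives, so the paired value is given as an alternative only. Called MXE events ran from 0 to 7 with a library left out, with 7 only without SCRM replicate 2, and called A3SS, A5SS and RI events stayed at 0. The 2 called events of the other microtubule genes became 12 with Fisher's exact test, 7 with the replicate block, 1 with a delta PSI minimum of 0.2, 1 with 1 event per exon, and 0 with a pseudocount of 0.1 or a filter of 20 counts, and ran from 0 to 4 with a library left out. With a library left out, the delta PSI ran from -0.112 to 0.0373 at the CLASP1 24 nt exon, from -0.165 to 0.0266 at the CLASP1 48 nt exon, from -0.168 to 0.00268 at the MACF1 63 nt exon, from -0.052 to 0.0208 at the MAP4 123 nt exon and from -0.0072 to 0.0256 at the MAP4 69 nt exon. Each changed sign without SCRM replicate 1, and the cause was not tested. Of 136 values of the 11 other exons under the alternatives, 130 kept their direction and their side of the threshold. The MACF1 18 nt exon was called with Fisher's exact test. Delta PSI does not depend on the test, pseudocount, filter, block or centring. Its direction could change only with the plain share or a library left out, so the count of 130 is no measure of a stable direction. TGCATG was found downstream of 5 exons in 200 nt and 6 in 500 nt. The planned edgeR interaction was not run. Exons with too few counts under a stricter filter gave no value there. The depth of SCRM replicate 1 far from the 3′ end limits what could be seen in CLASP1, CLASP2, CLIP1, the 5′ part of MACF1 and the 5′ exons of NUMA1.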
